A study of Mus musculus with 8 samples.

Results

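Genes of the autophagy machinery, with its best known receptor and regulator, were examined in the dentate gyrus of mice with a conditional deletion of Derlin-1 or Derlin-2. The 10 genes were Ulk1, Becn1, Atg5, Atg7, Atg12, Map1lc3a, Map1lc3b, Gabarap, Sqstm1 and Tfeb, chosen by name out of 26894 gene symbols on the array. All probes carrying these symbols were taken, which gave 21 probes, of which 20 passed the filter on dim probes. Both Derlins sit in the membrane of the endoplasmic reticulum (ER) and serve ER-associated degradation, in which misfolded proteins are moved to the cytosol and destroyed by the proteasome.

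RNA of the dentate gyrus was hybridised to 8 Agilent arrays with 1 dye (Cy3), so that each spot gives a single brightness. The groups, 4 in number with 2 arrays each, were Derlin-1 control (Derlin-1 flox/flox mice), Derlin-1 KO (flox/flox mice carrying Cre recombinase under the nestin promoter, which is active in neural progenitors), their counterparts Derlin-2 control (Derlin-2 flox/flox mice) and Derlin-2 KO (the same floxed allele with nestin-Cre). All were C57BL/6 mice of 8 to 9 weeks and male by their labels, although the methods of the study mention both sexes. The sources do not say whether the arrays of a group came from separate animals, so p-values measure only the spread between these samples. Controls carry no Cre, so an effect of the Cre transgene itself cannot be told apart from that of the deletion.

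Macroautophagy encloses cytoplasm in a double membrane and delivers it to the lysosome. The ULK1 kinase starts the process, the lipid kinase complex around Beclin 1 marks the membrane, and a ubiquitin-like conjugation system (ATG7, ATG12, ATG5) attaches small proteins of the LC3 and GABARAP family to the growing membrane. Receptors such as p62, encoded by Sqstm1, hold cargo to those proteins, and the transcription factor TFEB switches on genes of autophagy and lysosomes. In neurons, which do not dilute damaged proteins by division, loss of Atg5 or Atg7 is known to lead to protein aggregates. Activity of the pathway is regulated largely at the protein level, which these arrays do not measure.

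On each array 67.6% to 70.8% of probes exceeded background clearly, and 0 spots were saturated. Pearson's r between the arrays of a group was 0.987 to 0.995 across probes. Each line lay on a slide of its own, so that slide and line cannot be told apart, whereas KO and control of a line shared a slide. Signals are given as log2 of the quantile-normalized intensity, and each gene by its brightest tested probe unless another is named. The arrays carried markers of granule neurons, the main neurons of the dentate gyrus, with 8 of 8 well above background on all arrays. The 8 markers of CA pyramidal neurons were well above background as well, as were all listed markers of glia, vessels, choroid plexus and blood.

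The targeted genes were examined first, with KO arrays named by their labels. The signal of Derl1 was 10.85 and 10.76 in Derlin-1 control and 10.57 and 10.66 in Derlin-1 KO, a difference of -0.19 (SE 0.10, limma adjusted p = 0.9997). A second, dimmer Derl1 probe, designed on an expressed sequence tag, read 7.37 and 7.36 in control and 7.94 and 7.71 in KO, a difference of 0.46 (SE 0.12). The Derl1 signal therefore does not settle the deletion in the Derlin-1 line, and where the probes lie relative to the deleted part was not determined here. By immunostaining, the study reports hardly any Derlin-1 protein in the hippocampus or dentate gyrus of KO mice of this line. Derl2 read 11.35 and 11.22 in Derlin-2 control and 10.63 and 10.66 in Derlin-2 KO, a difference of -0.64 (SE 0.097, limma adjusted p = 0.2591), and its second probe differed by -1.04 (SE 0.14, limma adjusted p = 0.2137).

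None of the 10 autophagy genes passed the test in either line. Changes were tested with limma, a linear model fitted to all probes whose p-values were adjusted over all of them. In the Derlin-1 line, 0 of 10 genes had an adjusted p under 0.05, and 0 of 10 had an unadjusted p under 0.05. Over all genes tested in that line 0 of 19909 were called, or 0%, and 4.24% had an unadjusted p under 0.05. Among the members 0 of 10 were called in the Derlin-2 line by the adjusted and 0 of 10 by the unadjusted p, beside 9 of 19814 genes, or 0.0454%, over the array by adjusted and 4.76% by unadjusted p. The test of a different KO effect in the 2 lines called 0 of 10 genes, and 0 of 10 at an unadjusted p under 0.05 in limma, beside 1 of 19812 genes, or 0.00505%, by adjusted and 4.56% by unadjusted p. The members' changes ran from -0.21 to 0.06 in Derlin-1 KO and from -0.11 to 0.20 in Derlin-2 KO.

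The precision differed from gene to gene. The 95% confidence interval of the change lay within 1.5-fold in either direction for 6 of 10 genes with Derlin-1 KO and for 8 of 10 with Derlin-2 KO. Over all genes tested the share was 63.2% and 62.8%. In the Derlin-1 line Atg5, Atg7, Map1lc3a, Map1lc3b, Gabarap and Sqstm1 were bounded in this way, and Ulk1, Becn1, Atg12 and Tfeb were not. With Derlin-2 KO, Atg12 and Tfeb had intervals that reached past 1.5-fold. These bounds hold for the brightest probe of each gene. Intervals of some dimmer probes, among them probes of Gabarap and Sqstm1, reached past 1.5-fold in both lines.

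**Figure D1:**
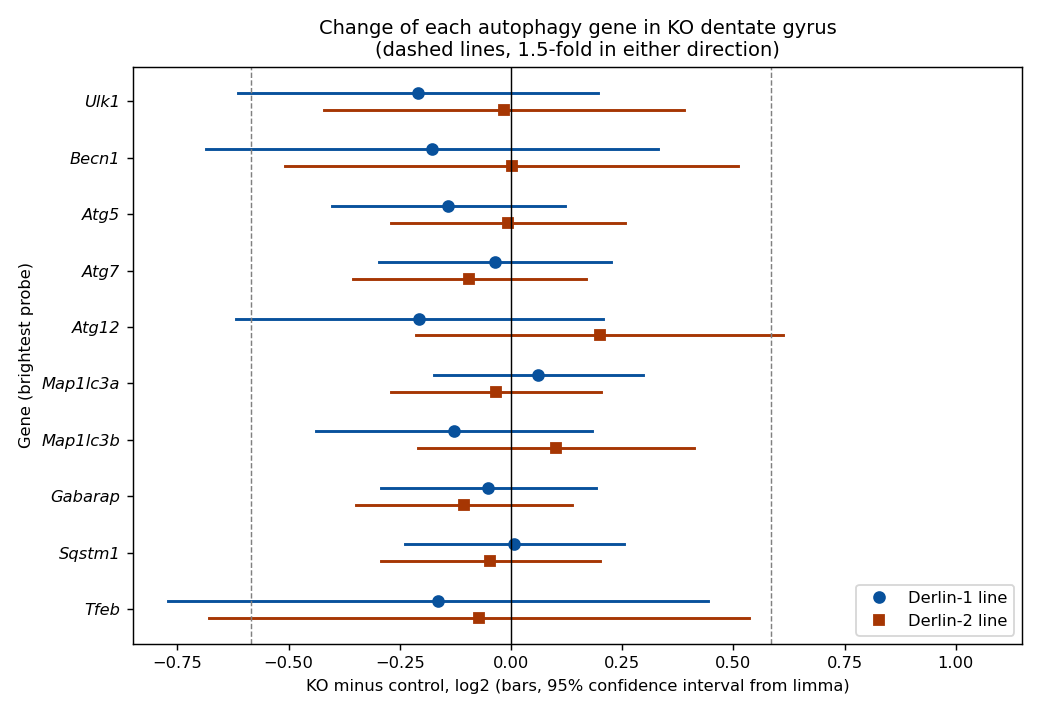
The change of each of the 10 genes in KO against control is plotted on the log2 scale for the Derlin-1 line (blue circles) and the Derlin-2 line (brown squares), with the 95% confidence interval from limma as bars and 1.5-fold as dashed lines. All 20 intervals include 0, and the widest, those of Tfeb, run from -0.77 to 0.44 and from -0.68 to 0.54.

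Although no gene passed, more genes were lower than higher in the Derlin-1 line, as in the Derlin-2 line described below. Of the 10 genes 8 were lower in KO, beside 53.9% of all genes. For 5 of these 8 (Ulk1, Atg5, Atg7, Map1lc3b and Gabarap) both KO arrays lay below both control arrays, beside 16.9% of all genes. The opposite arrangement, with both KO arrays above, was found for 0 of 10 genes, beside 17.2% of all genes. The median change of the 10 genes was -0.13, against -0.01 over all genes tested. Gabarap left the group of 5 when each array was scaled to its 75th percentile in place of quantile normalization. It also left when the background was modelled anew by normexp, and with the log2 values the authors deposited. Sqstm1 lay above its controls on both KO arrays with the first and the last of these. Those 2 settings gave nearly the same changes apart from a shift, so they are not separate checks. The median moved to -0.06 without Derlin-1 control replicate 1, to -0.09 without control replicate 2 and to -0.08 without Derlin-1 KO replicate 2. The genes were measured on the same 4 arrays and are not independent of each other. They were also chosen with earlier results of these data known.

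Mean signals of several marker lists also lay lower or higher in Derlin-1 KO, although 0 markers were called. Of 8 microglia markers 8 were lower in Derlin-1 KO, with a mean log2 signal of 11.17 to 11.27 in control and 11.07 to 11.12 in KO. All 4 blood markers were lower, at a mean of 8.71 to 9.54 in control and 8.54 to 8.57 in KO. Of 8 granule neuron markers 5 were lower, beside 53.9% of all genes, at 12.01 to 12.42 in control and 11.90 to 12.22 in KO. Of 6 choroid plexus markers 5 were higher, at 6.74 to 7.24 in control and 7.20 to 7.53 in KO. The ranges of control and KO overlapped for both of these lists. Markers of astrocytes, oligodendrocytes, endothelium and CA pyramidal neurons had mean changes between -0.05 and 0.09. By limma's adjusted p 0 markers of these lists were called. At an unadjusted p under 0.05 it was 1 each of granule neurons, choroid plexus and blood, beside 4.24% of all genes tested. Their part in the lower autophagy signals was not tested, and in RNA of whole tissue fewer cells of a type and less RNA per cell cannot be told apart. In younger mice of this line, the study counted astrocytes and microglia in the molecular layer and hilus and reports no difference in number.

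In the Derlin-2 line 7 of 10 genes were lower and 3 higher, beside 45.6% of all genes lower. Gabarap alone had both KO arrays below both controls, beside 13.6% of all genes, and Atg12 alone had both above, beside 19.2%. In a list of 10 genes counts of 1 are close to those shares and show no trait of the members. The median change was -0.02, against 0.02 over all genes. With 75th percentile scaling 4 of 10 genes were lower and the median was 0.01, and without Derlin-2 control replicate 2 the count was 4 of 10 and the median 0.01 as well. Without Derlin-2 control replicate 1 the median was -0.08. Microglia markers were higher in 6 of 8 cases in this line, at 10.92 to 11.09 in control and 11.06 to 11.18 in KO, with 0 called by limma's adjusted p and 1 at an unadjusted p under 0.05. The mean changes of the other marker lists lay between -0.05 and 0.14, with 1 granule neuron marker at an unadjusted p under 0.05, beside 4.76% of all genes.

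**Figure D2:**
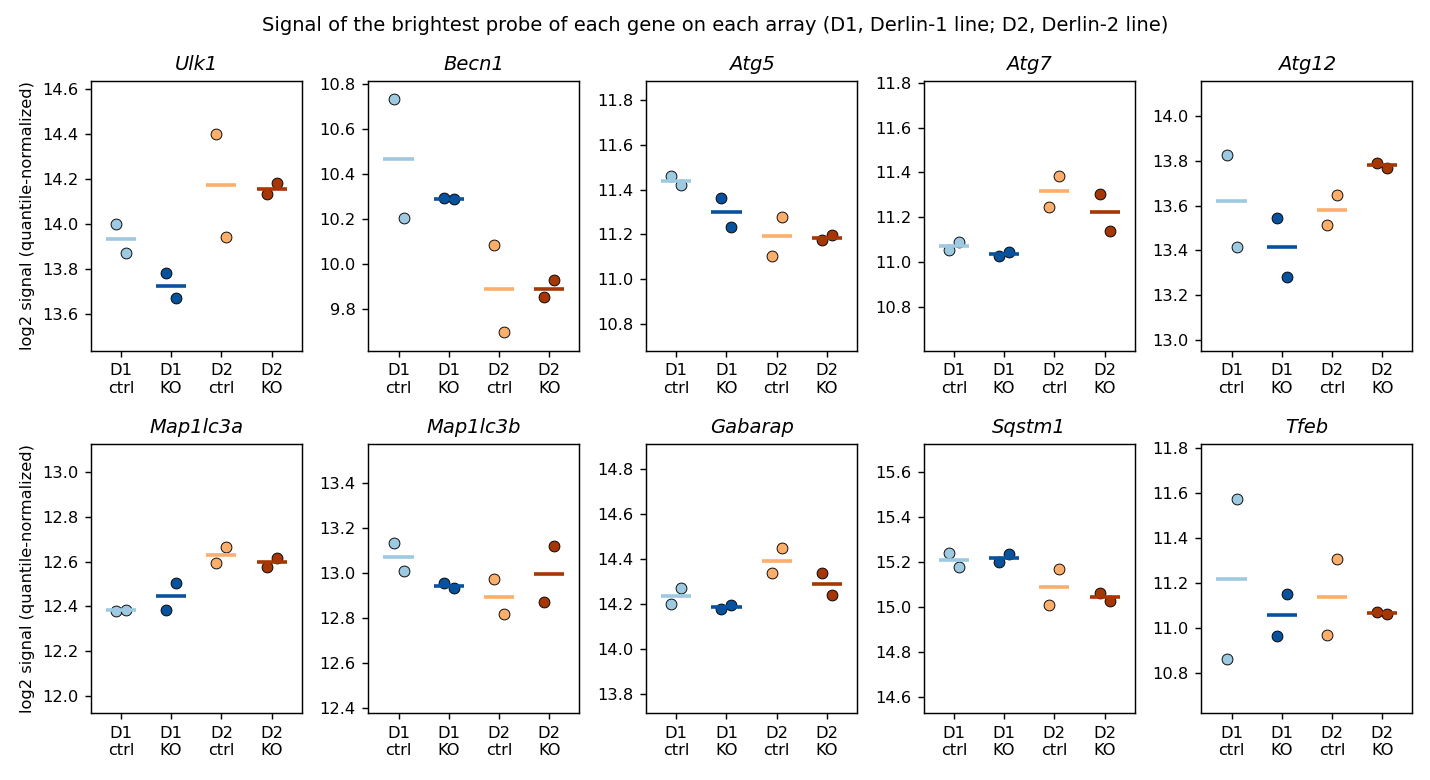
The log2 signal of the brightest probe is plotted for each gene on all 8 arrays, with bars at the group means, and every panel spans 1.2 log2 units around its own centre. Atg5, Ulk1, Atg7, Map1lc3b and Gabarap show both Derlin-1 KO arrays below both controls, and the arrays of a group differ by up to 0.71, for Tfeb in Derlin-1 control.

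Ulk1 encodes the kinase that starts autophagosome formation when nutrients or energy are short. Its log2 signal was 14.00 and 13.87 in Derlin-1 control and 13.78 and 13.67 in Derlin-1 KO, so that the groups did not overlap. The difference was -0.21 (SE 0.17, limma adjusted p = 0.9997). The Derlin-2 line gave 14.40 and 13.94 in control and 14.13 and 14.18 in KO, with the KO arrays between the controls and a difference of -0.02 (SE 0.17). The direction in the Derlin-2 line turned with 75th percentile scaling, to 0.05. A dim second probe of the same transcript read 5.07 to 6.00 on the Derlin-1 line's arrays and differed by -0.48 (SE 0.29) there, and by -0.34 (SE 0.29) in the Derlin-2 line.

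Becn1 encodes Beclin 1, a subunit of the lipid kinase complex that also holds Vps34. Its signal was 10.73 and 10.20 in Derlin-1 control and 10.29 and 10.29 in KO, so both KO arrays lay between the controls. The difference of -0.18 (SE 0.21) became 0.09 without Derlin-1 control replicate 1. Arrays of the Derlin-2 line read 10.08 and 9.70 in control and 9.85 and 9.93 in KO, a difference of 0.0015 (SE 0.21) with an interval from -0.51 to 0.51. Every array of the Derlin-1 line lay above every array of the Derlin-2 line, and the control means were 10.47 and 9.89.

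Atg5, Atg7 and Atg12 belong to the conjugation system. ATG7 is the activating enzyme, and ATG12 is joined to ATG5 to form the complex that places LC3 on membranes. Atg5 read 11.46 and 11.42 in Derlin-1 control and 11.36 and 11.24 in KO, without overlap. The difference was -0.14 (SE 0.11), with an interval from -0.40 to 0.12. Its signal in the Derlin-2 line was 11.11 and 11.28 in control and 11.18 and 11.20 in KO, where the groups overlapped and differed by -0.01 (SE 0.11).

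Atg7 read 11.06 and 11.09 in Derlin-1 control and 11.03 and 11.05 in KO. These groups were separate by very little, and the difference was -0.04 (SE 0.11). The second Atg7 probe, of another RefSeq transcript, read 8.53 and 8.38 in control and 8.20 and 8.17 in KO, a difference of -0.27 (SE 0.10, limma adjusted p = 0.9997). The 2 Atg7 probes differed by -0.09 (SE 0.11) and 0.01 (SE 0.10) in the Derlin-2 line. The first read 11.25 and 11.38 in Derlin-2 control and 11.30 and 11.14 in KO, which overlap.

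Atg12 was the gene with the most different estimates in the 2 lines. Its signal was 13.82 and 13.42 in Derlin-1 control and 13.55 and 13.28 in KO, a difference of -0.21 (SE 0.17) with overlapping groups. Its Derlin-2 values were 13.51 and 13.64 in control and 13.79 and 13.77 in KO, a difference of 0.20 (SE 0.17) without overlap. The lines differed by -0.41 (SE 0.24, limma adjusted p = 0.8928), with an interval from -0.99 to 0.18. Atg12 had 1 probe, and its Derlin-1 estimate ranged from -0.41 to -0.0014 when single arrays were left out.

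Promoter windows of 300 bases, 250 before the transcription start and 50 after it, were listed by RefSeq on GRCm38.p6 for 7 of the 10 genes, in 9 windows since Tfeb has several starts. Becn1, Atg12 and Map1lc3a had no entry. The E-box CACGTG, to which TFEB and related factors are known to bind, was found in 2 of the 9 windows, those of Atg5 and Atg7, beside 7.15% of all 32851 windows. Both strands were searched, and this motif reads the same on each. The stretches around the motif are shown for comparison, with the E-box in capitals, on the plus strand of chr10:44268285-44268338 for Atg5 and of chr6:114670924-114670977 for Atg7.
Atg5: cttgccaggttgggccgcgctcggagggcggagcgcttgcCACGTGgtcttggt
Atg7: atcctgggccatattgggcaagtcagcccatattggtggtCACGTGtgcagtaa
The E-box began 14 bases before the start of Atg5 and 132 bases before that of Atg7. The longer core of the CLEAR element, TCACGTGA, which contains the E-box, was in 0 of the 9 windows and in 0.974% of all windows. The amino acid response element, searched as TGATGNAA on both strands, was in 0 of 9 windows beside 3.97% of all. The antioxidant response element, searched as TGACNNNGC on both strands, was in 1 of 9, that of Map1lc3b, beside 12.4% of all. A match describes letters in this window and no site in use.

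Map1lc3a and Map1lc3b encode LC3A and LC3B, which are attached to the autophagosome membrane, and Gabarap encodes the founding member of the other branch of that family. Map1lc3a read 12.38 and 12.39 in Derlin-1 control and 12.39 and 12.51 in KO, a difference of 0.06 (SE 0.097). For the Derlin-2 line the signal was 12.59 and 12.67 in control and 12.58 and 12.62 in KO, a difference of -0.03 (SE 0.097). Its intervals, from -0.17 to 0.30 and from -0.27 to 0.20, are the narrowest of the 10 genes. Its only probe lies in the last eighth of the array's rows, so that no value remained when those rows were left out.

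Map1lc3b had 3 tested probes. The brightest read 13.14 and 13.01 in Derlin-1 control and 12.96 and 12.93 in KO, a difference of -0.13 (SE 0.13) without overlap, and 12.97 and 12.82 in Derlin-2 control and 12.87 and 13.12 in KO, a difference of 0.10 (SE 0.13) with overlap. The second probe of the same transcript differed by -0.19 (SE 0.12) and 0.02 (SE 0.12). Both probes thus gave a lower estimate in the Derlin-1 line and a higher one in the Derlin-2 line, and 0 of the 4 changes had an unadjusted p under 0.05 in limma. The dimmest probe differed by -0.15 and -0.18, each with an SE of 0.34.

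Gabarap read 14.20 and 14.27 in Derlin-1 control and 14.18 and 14.20 in KO, and 14.34 and 14.45 in Derlin-2 control and 14.34 and 14.24 in KO. The differences were -0.05 and -0.11, each with an SE of 0.099. It was the only one of the 10 genes with KO below control without overlap in both lines. The share of all genes with this arrangement was not computed, so it shows no trait particular to Gabarap. The nearest control and KO arrays of the Derlin-2 line read the same at 2 decimals, and the separation was gone in both lines with 75th percentile scaling. A dim probe of transcript ENSMUST00000018711 read 6.56 and 6.50 in Derlin-1 control and 6.00 and 5.98 in KO. The same probe read 5.96 and 5.80 in Derlin-2 control and 6.39 and 6.38 in Derlin-2 KO. The groups were apart in both lines and in opposite directions, with differences of -0.54 (SE 0.10, limma adjusted p = 0.9997) and 0.50 (SE 0.10, limma adjusted p = 0.4615). A further dim probe differed by -0.22 (SE 0.25) and 0.28 (SE 0.25).

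Sqstm1 encodes p62, which binds ubiquitinated proteins and LC3, is itself degraded by autophagy, and is induced by the factor NRF2 in oxidative stress. Its signal was 15.24 and 15.18 in Derlin-1 control and 15.20 and 15.24 in KO, with a difference of 0.01 (SE 0.10) and an interval from -0.24 to 0.25. Derlin-2 arrays read 15.01 and 15.17 in control and 15.06 and 15.03 in KO, with a difference of -0.05 (SE 0.10) and an interval from -0.29 to 0.20. The KO arrays overlapped the controls in both lines, and no change of more than 1.5-fold lies within either interval. The second probe of the same transcript varied more, from 11.07 to 12.16 over the 8 arrays, and differed by -0.14 and 0.10 (SE 0.29). The dimmest of its probes differed by -0.36 (SE 0.15, limma adjusted p = 0.9997) in the Derlin-1 line and by 0.02 in the Derlin-2 line.

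Tfeb encodes the transcription factor of lysosomal genes. Its brightest probe, of transcript ENSMUST00000125177, read 10.86 and 11.58 in Derlin-1 control and 10.96 and 11.15 in KO. The controls differed by 0.71, more than any other pair of arrays within a group among the 10 genes. The difference of -0.16 (SE 0.25) became 0.19 without Derlin-1 control replicate 2. The probe read 10.97 and 11.31 in Derlin-2 control and 11.07 and 11.06 in KO, a difference of -0.07 (SE 0.25). The tested probes of RefSeq transcripts were dim, between 5.99 and 7.50. One of them differed by -0.32 (SE 0.16) and -0.25 (SE 0.16), and the other by -0.20 (SE 0.14) and 0.21 (SE 0.14), without overlap in either line for the latter. The fourth Tfeb probe was well above background on 4 of 8 arrays and was not tested.

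**Figure D3:**
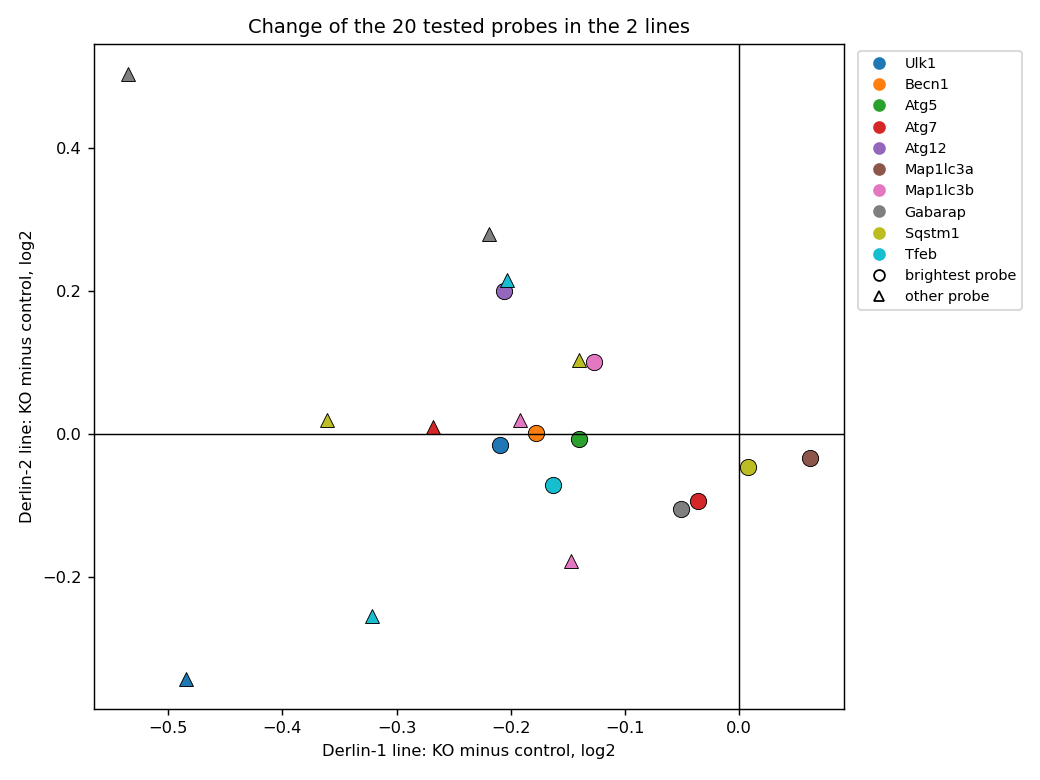
Each of the 20 tested probes is plotted by its KO minus control difference on the log2 scale in the Derlin-1 line (x axis) and the Derlin-2 line (y axis), coloured by gene, with circles for the brightest probe of a gene and triangles for the others. Below 0 lie 18 probes on the x axis and 10 on the y axis, and the probe at the top left is the dim Gabarap probe at -0.54 and 0.50.

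Over all 20 tested probes 18 were lower in Derlin-1 KO, 12 of them without overlap of the groups, and 0 were higher without overlap, beside 16.9% and 17.2% of all genes by their brightest probe. With Derlin-2 KO 10 were lower and 10 higher, 2 and 3 of them without overlap, beside 13.6% and 19.2% of all genes. By limma 0 of 20 probes were called in either line, and 2 probes with Derlin-1 KO and 1 with Derlin-2 KO had an unadjusted p under 0.05, beside 4.24% and 4.76% of all genes. Those of the Derlin-1 line were the second Atg7 probe and the dim Gabarap probe, and that of the Derlin-2 line was the dim Gabarap probe. Probes of a gene share its transcripts and are not independent. The shares beside these counts are over genes by their brightest probe, whereas the 20 probes include the dimmer ones of a gene. No share over all tested probes was computed, so these counts show no trait particular to the autophagy probes.

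Control arrays of the 2 lines also differed from each other, although both carried floxed alleles without Cre. The control arrays of the lines did not overlap for Becn1, Atg5, Atg7, Map1lc3a, Map1lc3b, Gabarap and Sqstm1, and overlapped for Ulk1, Atg12 and Tfeb. The share of all genes with separate controls was not computed, so this list shows no trait particular to these genes. Apart from Becn1 the differences of the mean lay between -0.25 and 0.25. A dim Tfeb probe had the largest difference between the lines among the member probes, at 6.33 in Derlin-1 control and 7.33 in Derlin-2 control. Slide and line cannot be told apart in these values.

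Ordering the 4 groups by their mean gave neighbours that did not overlap at 1 or 2 steps for 7 of the 10 genes and at 0 steps for Atg12, Map1lc3b and Tfeb. The order was set by the same values, and the share over all genes was not computed. These counts are therefore a description only. For Atg5 the Derlin-1 controls were highest, followed by Derlin-1 KO and then by the controls and KO of the Derlin-2 line, with separate arrays only at the first step. For Ulk1, Atg7 and Gabarap it was Derlin-2 control, Derlin-2 KO, Derlin-1 control and Derlin-1 KO. The pathway gene most like each member over the 8 arrays, by Pearson's r among 138 genes, was Pik3c3 for Becn1 (r = 0.98), Gclm for Map1lc3a (0.97), Gabarap for Atg7 and the reverse (0.96), Rraga for Sqstm1 (0.94) and Ddit4 for Atg12 (0.92). Those for Ulk1, Atg5, Map1lc3b and Tfeb were Vps11, Vamp8, Atg3 and Osgin1, with r from 0.83 to 0.89. These values describe 8 arrays on 2 slides, so that they hold the difference between the lines, and no p is given.

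The wider pathway was examined in 12 lists holding 140 genes, of which 139 were measured. By limma's adjusted p 0 genes were called in either line. At an unadjusted p under 0.05, 0 genes passed in the Derlin-1 line and 1 higher and 1 lower gene in the Derlin-2 line, beside 4.24% and 4.76% of all genes tested. The median change over the lists was -0.03 and -0.01, against -0.01 and 0.02 over all genes tested.

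The counts and medians of the lists include the members they hold. Over all genes tested 53.9% were lower in Derlin-1 KO and 45.6% in Derlin-2 KO. In the ULK1 complex 4 of 5 genes were lower in Derlin-1 KO and 2 of 5 in Derlin-2 KO, where Ulk2 differed by 0.25 (SE 0.13) and Rb1cc1, which encodes the scaffold FIP200, by 0.15 (SE 0.11). In the class III PI3 kinase complex 5 of 9 genes were lower in Derlin-1 KO and 3 of 9 in Derlin-2 KO, with Nrbf2 at 0.11 and 0.15, each with an SE of 0.12, Bcl2 at 0.04 in the Derlin-1 line and Ambra1 at -0.06 in the Derlin-2 line. Genes in the list of ATG9, ATG2 and WIPI proteins were higher in 9 of 10 and 8 of 10 cases, with medians of 0.09 and 0.04. Named by the rule were Atg2a at 0.16 and Wipi1 at -0.14 in the Derlin-1 line and Tmem41b at 0.19 in the Derlin-2 line.

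In the conjugation list 8 of 11 genes were lower in Derlin-1 KO and 6 of 11 in Derlin-2 KO. Atg16l1, which directs the ATG12 and ATG5 conjugate to membranes, read 12.80 and 12.79 in Derlin-1 control and 13.40 and 13.25 in KO. The difference was 0.53 (SE 0.23, limma adjusted p = 0.9997). In the Derlin-2 line it was -0.30 (SE 0.23), with overlapping arrays at 12.82 and 12.11 in control and 12.27 and 12.07 in KO. The lines differed by 0.83 (SE 0.33, limma adjusted p = 0.8443), with an unadjusted p under 0.05. No transcript was listed for this probe. Atg4b, a protease that trims LC3, was at -0.06 and 0.07, and Atg3 was at 0.18 in the Derlin-2 line. In the ATG8 family, Gabarapl2 was at -0.09 and 0.08 (SE 0.093) without overlap in either line, and Gabarapl1 at 0.11 (SE 0.10) in the Derlin-2 line.

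The list of cargo receptors, Sqstm1 included, had medians of 0.01 and 0.06 over 12 genes. Bnip3l, a receptor of mitochondria, was at -0.08 and 0.09 (SE 0.095), Wdfy3 at -0.11 in the Derlin-1 line and Fundc1 at 0.16 in the Derlin-2 line. Receptors of ER-phagy, the uptake of parts of the ER, were lower in 7 of 9 and 4 of 9 cases. Of these Retreg3 was at -0.13 (SE 0.097) and Atl3 at -0.11 (SE 0.10) in the Derlin-1 line, and Sec62 at 0.11 and Ccpg1 at -0.13 in the Derlin-2 line. In the fusion list 12 of 15 genes were lower in the Derlin-1 line and 6 of 15 in the Derlin-2 line, with Stx17, the syntaxin of the autophagosome, at -0.33 (SE 0.16, limma adjusted p = 0.9997) in the Derlin-1 line. Vti1b was at -0.15 and 0.14 (SE 0.11), and Snap29 at 0.18 in the Derlin-2 line.

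Lysosomal genes known as targets of TFEB were lower in 18 of 26 cases in Derlin-1 KO and in 21 of 26 in Derlin-2 KO. Over all genes the shares were 53.9% and 45.6%. The medians of the list were -0.06 and -0.08 against -0.01 and 0.02 over all genes. By limma 0 of 26 were called in either line. Ctsz, a lysosomal peptidase, read 10.49 and 10.68 in Derlin-2 control and 10.31 and 10.13 in KO, the 1 lower gene past an unadjusted p of 0.05, with a difference of -0.36 (SE 0.12, limma adjusted p = 0.8106). Ctsd, which encodes cathepsin D, read 13.45 and 13.63 in control and 13.30 and 13.32 in KO, a difference of -0.23 (SE 0.10). Grn, which encodes progranulin, read 16.66 and 17.76 in Derlin-1 control and 16.29 and 16.07 in KO, a difference of -1.03 (SE 0.49, limma adjusted p = 0.9997), and the controls alone differed by more than the difference of the means. Atp6v1h, a subunit of the proton pump, was at -0.16 in the Derlin-1 line. Several of these genes are also abundant in microglia, whose 8 markers were all lower in Derlin-1 KO and higher in 6 of 8 cases in Derlin-2 KO. The part of these cells in the lysosomal signals was not tested.

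The remaining lists held regulators. Among 24 genes of mTORC1 and AMPK control 15 were lower in Derlin-1 KO and 12 in Derlin-2 KO, with Rheb, the activator of mTORC1, at 0.19 and Prkaa2 at 0.14 in the Derlin-1 line. Prkab1 was at 0.30 (SE 0.15) and Akt1s1 at -0.28 (SE 0.14) in the Derlin-2 line. Of the 4 MiT/TFE factors, Tfeb among them, 3 were measured, with changes of 0.0039 for Tfe3 and 0.05 for Mitf in the Derlin-1 line and 0.02 and -0.08 in the Derlin-2 line. In the KEAP1-NRF2 pathway, to which p62 is linked, 7 of 11 and 8 of 11 genes were lower. Slc7a11, the cystine transporter, read 8.75 and 8.32 in Derlin-2 control and 9.05 and 9.14 in KO, the 1 higher gene past an unadjusted p of 0.05, with a difference of 0.56 (SE 0.20, limma adjusted p = 0.8498). Hmox1, which encodes heme oxygenase, was at -0.44 (SE 0.20) in the Derlin-1 line, and Srxn1 at 0.17 and 0.14 (SE 0.098).

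**Figure D4:**
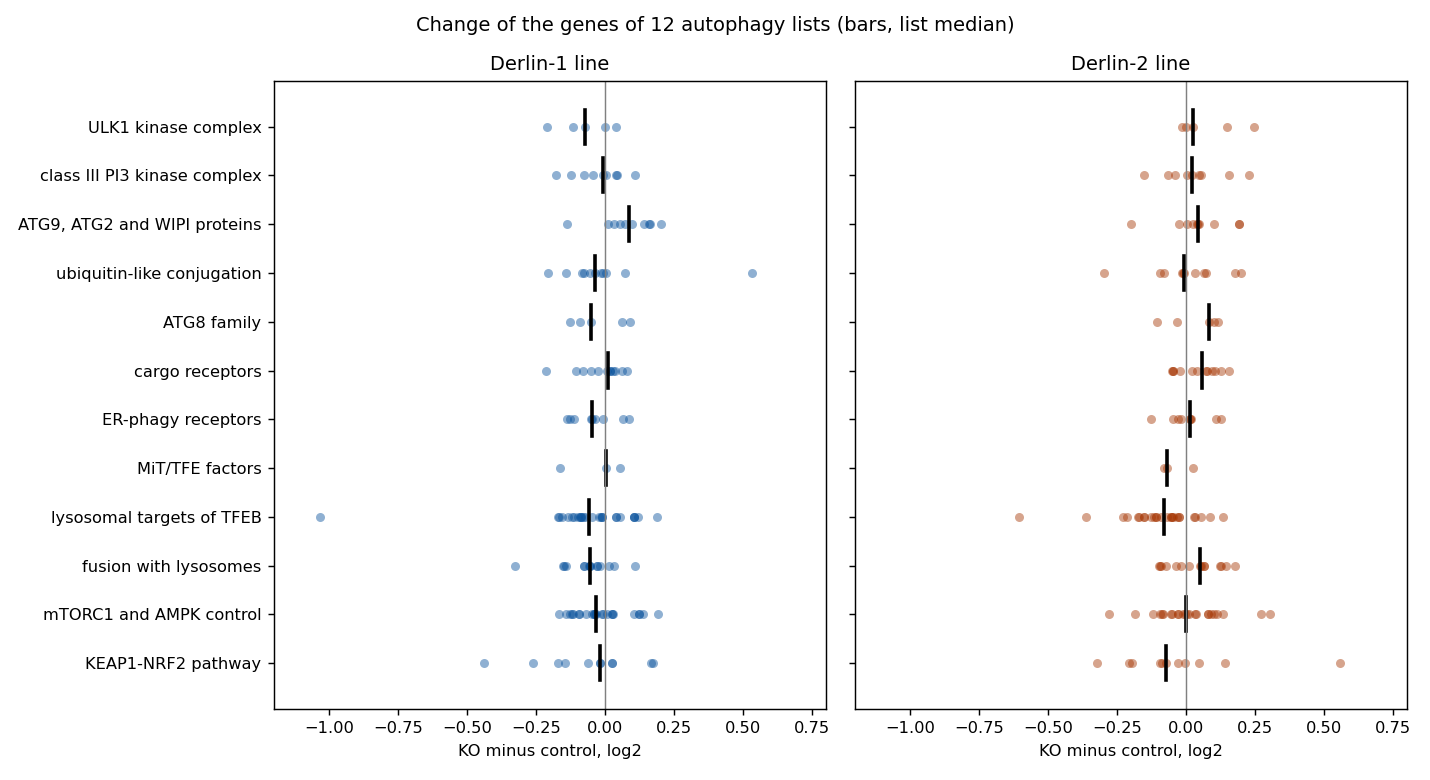
The KO minus control difference on the log2 scale is plotted for every measured gene of the 12 lists, 1 row a list and 1 panel a line, with black bars at the list medians. List medians lie between -0.08 and 0.09, and the points farthest from 0 are those of Grn, at -1.03 in the left panel and -0.61 in the right.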

How the data were processed

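The 8 arrays were Agilent 1-colour arrays, and groups were taken from the sample titles, since the genotype entries of KO samples give only the floxed allele. Each scanner file deposited holds spot intensity values, which the authors extracted with Agilent Feature Extraction 10.7.1.1 (background-subtracted and detrended within the array, mouse build mm9). In addition, the deposited fold-change tables give log2 values that the authors quantile-normalized in GeneSpring and shifted to each probe's median, whose columns could be assigned to groups only. Those tables also hold the authors' fold changes and directions of KO against control, which were not used. Their gene symbols were joined to the scanner files by probe name. Flags for background, saturation and outliers are other columns of the deposited files.

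After a floor of 1, intensities were put on the log2 scale, and the 8 arrays were quantile-normalized together. Outlier-flagged spots were then removed and spots of a probe averaged. A probe was kept if it was well above background on both arrays of at least 1 group, which left 40001 of 56605 probes and 19922 gene symbols. Group means were fitted to all 8 arrays with limma 3.58.1 in R 4.3.3, so that the groups shared 1 estimate of the spread (residual df 4, prior df 2.07), and contrasts were two-sided with Benjamini-Hochberg adjustment over all probes tested and a threshold of 0.05. A gene with several probes was given by the brightest tested one. The fit was also run on simulated arrays whose noise was drawn independently for each probe and array. Such arrays hold no shift shared by the probes of an array, so that check does not cover such shifts. The precision of these values is limited by the number of arrays, 2 a group.

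The 10 genes, the pathway lists and the marker lists were chosen with earlier results of these data known. From each pathway list and line, up to 2 genes beside the members were named, those with the smallest p among the genes whose groups did not overlap, and for each member the pathway gene most like it. Alternatives were 75th percentile scaling, normexp correction (offset 50, on the median spot and background intensity, since the files hold no mean signal), no filter or a stricter filter on dim probes, the deposited log2 values, a fit to 1 line, a replicate block, the mean over probes, leaving out the last eighth of the array's 384 rows or single arrays, trend and robust moderation, and a 1.5-fold rule. Promoter sequences were from RefSeq, GRCm38.p6.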

Additional observations from a re-analysis of the deposited data

Results flagged for a closer look

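Probe A_55_P2000718 of Gabarap, a dim probe of transcript ENSMUST00000018711, was singled out since all KO arrays lay below their controls in the Derlin-1 line and above them in the Derlin-2 line. The log2 difference between the KO effects was -1.04 (SE 0.14), with an unadjusted p of 0.00031 and an adjusted p of 0.3084 in limma. It did not pass the correction over all probes. Since the probe was picked for the separation of these same arrays, the unadjusted p cannot count as support. The share of all probes with this arrangement was not computed. The probe's changes were -0.41 and 0.45 with 75th percentile scaling, -0.30 and 0.26 with normexp correction and -0.43 and 0.44 with the deposited log2 values. Leaving out an array could not turn either sign, since the groups did not overlap. The brightest Gabarap probe did not show it, at -0.05 and -0.11.

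Probe A_55_P1997898 of Tfeb showed the same arrangement of arrays and was picked for it, with changes of -0.20 and 0.21. The difference was -0.42 (SE 0.19), with an unadjusted p of 0.07347 and an adjusted p of 0.8512 in limma.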

How the results depend on the processing

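By adjusted p 0 of the 10 autophagy genes and 0 of the 129 other pathway genes were called in either line under each alternative run (of 9 and 125 measured without the last eighth of rows, where Map1lc3a had no value). The 1.5-fold rule was run for the members only and 0 of 10 passed it. Over genes, lines and alternatives, 27 changes of a member turned their direction. The filters, the omission of rows, the fit to 1 line, the replicate block and arrays of the other line could not turn one, since they leave the estimate as it is. With 75th percentile scaling Gabarap was at 0.0013 in the Derlin-1 line, and Ulk1, Atg5 and Sqstm1 at 0.0459, 0.0092 and 0.0405 in the Derlin-2 line, where 4 genes were lower and 0 had both KO arrays below both controls, while 1 gene (Sqstm1) had both above in the Derlin-1 line. With the deposited log2 values Becn1, Ulk1, Atg5 and Sqstm1 were at -0.0024, 0.0408, 0.0041 and 0.0354 in the Derlin-2 line, again with 0 genes below there and 1 above in the Derlin-1 line. With normexp correction Becn1 was at -0.0011 in the Derlin-2 line, and the median of the members at -0.1025 in the Derlin-1 line. With the mean over all probes that median was -0.1712, Sqstm1 was at -0.1646 in the Derlin-1 line, and Map1lc3b, Gabarap and Sqstm1 were at -0.0192, 0.2258 and 0.0255 in the Derlin-2 line. The cause was not tested.

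Leaving out single arrays moved the median from -0.1340 to -0.0588 in the Derlin-1 line and from -0.0820 to 0.0130 in the Derlin-2 line, and the number of lower genes from 7 to 9 and from 4 to 9. The changes ranged from -0.4421 to 0.0866 for Becn1, from -0.0242 to 0.0391 for Sqstm1 and from -0.5194 to 0.1929 for Tfeb in the Derlin-1 line. For Derlin-2 they ranged from -0.0942 to 0.0799 for Atg5, -0.1922 to 0.1952 for Becn1, -0.0698 to 0.0032 for Map1lc3a, -0.0256 to 0.2272 for Map1lc3b, -0.1249 to 0.0326 for Sqstm1, -0.2415 to 0.0993 for Tfeb and -0.2451 to 0.2139 for Ulk1. Where a group kept 1 array, that array was assumed to vary like the others.

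With a replicate block 0 of 10 genes were called in either line and the medians were -0.1340 and -0.0244, while the probes called in the Derlin-2 line over the whole array went from 18 to 0. Deviations of same-numbered arrays correlated at 0.2679 and -0.0982, which does not show that the numbers pair the arrays. Over the array the probes called in the Derlin-2 line also ranged from 0 to 54 with other settings. With 2 arrays a group, changes within 1.5-fold could not be bounded for Ulk1, Becn1, Atg12 and Tfeb in the Derlin-1 line or for Atg12 and Tfeb in the Derlin-2 line.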
